A study of Arabidopsis thaliana with 48 samples.

Results

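SWEET4 and SWEET11 encode sugar transporters of the SWEET family of Arabidopsis thaliana, and their transcripts were followed on 48 arrays. Each gene had 1 probe set tied to it alone, for SWEET4 at locus AT3G28007 and for SWEET11 at locus AT3G48740. These are 2 of the 16 SWEET genes with a named probe set and 2 of the 22746 probe sets tested. The pair was chosen by what earlier work on these same values had shown in wild type (WT). SWEET4 was selected on a response to the hormone abscisic acid (ABA) that was larger in leaves than in guard cells. SWEET11 was selected on a lower level in guard cells than in leaves and on a fall under ABA in leaves. Values of the 2 genes in WT are therefore a description with no test, and tests compared groups of the 3 mutants. The spread in the main fits was estimated from all arrays of a fit, WT included.

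SWEET proteins let sugars cross a membrane down their concentration gradient, without the proton coupling that drives the symporters of the same pathway. SWEET11 is a plasma membrane sucrose carrier of leaf veins. There, together with its close relative SWEET12, it releases sucrose from phloem parenchyma for loading into the phloem. SWEET4 carries glucose and fructose and is known from veins and other vascular tissue. ABA is the drought hormone that closes stomata, the leaf pores bordered by guard cells. GPA1 and AGB1 are the alpha and beta subunits of the heterotrimeric G protein, which takes part in ABA signalling of guard cells.

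RNA came from isolated guard cells on 24 arrays and from whole leaves on the other 24. All plants were of the ecotype Columbia (Col-0), 5 weeks old, and were WT, the agb1-2 mutant, the gpa1-4 mutant or the agb1-2 gpa1-4 double mutant, each mutant line represented by 1 allele per gene. Each combination of sample type and genotype received 50 µM ABA or the solvent ethanol (EtOH) for 3 h, which gave 16 groups of 3 biological replicates. Each guard cell sample pooled 300 leaves from 60 to 70 plants, and each whole-leaf sample held 10 leaves from 3 to 4 plants. The labels disagree on whether ABA was given to intact leaves or to guard cells after isolation. Samples whose description names EtOH are called untreated in another label field, and the description was followed. No named probe set held GPA1 or AGB1, so the genotype labels were not checked by expression here.

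Values are the authors' log2 expression values, on which a difference of 1 is a 2-fold change, and the arrays' medians lay between 5.06 and 5.39. These values carry no detection calls. The lower quartile of an array fell between 3.61 and 3.82, so a value near 4 stood close to the dimmest 25% of probe sets. A log2 difference with 1 side that dim is one of deposited values and may understate the change, so no fold is given for it. The 2 measured guard cell markers, the stomatal regulator FAMA and AT1G22690, were called higher in guard cell samples than in leaves in every genotype and treatment. Their mean level was 12.03 to 12.77 in guard cell samples and 7.06 to 8.60 in leaves, all with EtOH. With ABA it was 10.70 to 11.50 and 6.83 to 7.77. Over these comparisons 19.6% to 26% of all probe sets were called higher in guard cells. Mesophyll markers, photosynthesis genes of the leaf interior, had 6 measured members with a mean level of 9.28 to 10.31 in guard cell samples with EtOH and 11.48 to 12.61 in leaves. With ABA the ranges were 8.23 to 10.01 and 10.46 to 11.47. Their signal in the guard cell samples was thus lower than in leaves but well above the dimmest quartile. Of 17 vascular markers written down 1 was measured, OPS, a regulator of phloem formation, and it stayed between 3.32 and 4.18 on all arrays. Epidermis markers had 0 of 6 measured members, and SWEET12 was not analysed here.

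**Figure D1:**
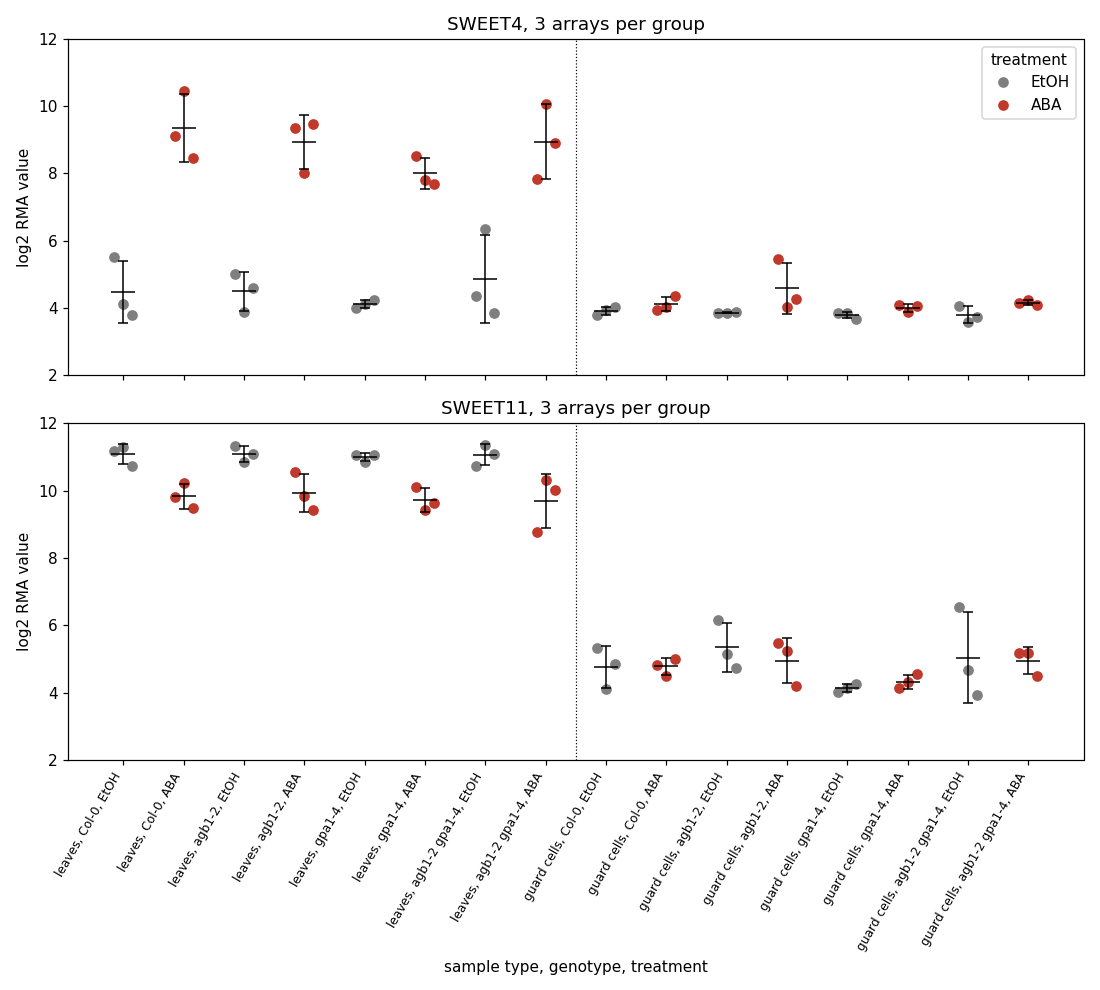
Log2 expression value (vertical axis) of SWEET4 (top) and SWEET11 (bottom) on each of 48 arrays, by sample type, genotype and treatment (horizontal axis). Points are single arrays, bars show mean ± SD (n = 3). SWEET4 lies between 7.69 and 10.46 in leaves with ABA and at 6.34 or lower elsewhere, and SWEET11 separates leaves from guard cells.

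SWEET4 was low in leaves without ABA and high with it. In WT leaves its level was 5.52, 4.11 and 3.79 with EtOH and 9.12, 10.46 and 8.46 with ABA, a difference of 4.87 on the log2 scale. In agb1-2 leaves it was 5.01, 3.88 and 4.59 with EtOH and 9.34, 8.02 and 9.47 with ABA. Every ABA array of these genotypes stood far above every EtOH array of its own genotype. In gpa1-4 leaves the EtOH arrays read 3.99, 4.12 and 4.25 and the ABA arrays 8.52, 7.80 and 7.69. In leaves of the double mutant they read 4.37, 6.34 and 3.85 with EtOH and 7.84, 10.06 and 8.91 with ABA. The groups did not overlap in any of the 4 genotypes (nor did those of 48.9% of all probe sets in WT), and the array of the double mutant at 6.34 was the highest of all EtOH arrays.

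The rise of SWEET4 in leaves passed the threshold, an adjusted p under 0.05, in each of the 3 mutants. It was 4.45 (SE 0.663, 95% interval 3.06 to 5.84) in agb1-2, with an adjusted p of 0.000138 by limma with Benjamini-Hochberg adjustment over all probe sets. It was 3.89 (2.50 to 5.28, adjusted p = 0.000629) in gpa1-4 and 4.08 (2.69 to 5.47, adjusted p = 0.000431) in the double mutant. As background, ABA raised 6.93% of all probe sets in agb1-2 leaves, 5.37% in gpa1-4 leaves and 5.09% in double mutant leaves. The groups of 3 did not overlap at 26% of probe sets in the agb1-2 mutant, 32.3% in the gpa1-4 mutant and 25.4% in the double mutant. Leaving out any 1 array kept the rise between 3.52 and 4.92 over the mutants, with adjusted p of 0.00531 or less. The EtOH arrays with the most SWEET4, at 6.34, 5.52 and 5.01, had a mean level of 10.11, 9.76 and 9.71 over the 4 measured ABA-induced genes. The range of that mean over leaves with EtOH was 9.17 to 10.20, and its part in the SWEET4 level was not tested.

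SWEET11 was among the bright genes of leaves and was lower with ABA. In WT leaves its level was 11.17, 11.31 and 10.74 with EtOH and 9.80, 10.22 and 9.48 with ABA, a difference of -1.24. In agb1-2 leaves it was 11.32, 10.86 and 11.09 with EtOH and 10.56, 9.83 and 9.43 with ABA. Both sets of 3 stood apart without overlap, by less than their own spread in agb1-2. The gpa1-4 leaves read 11.05, 10.85 and 11.06 with EtOH and 10.11, 9.43 and 9.62 with ABA. Leaves of the double mutant read 10.74, 11.36 and 11.09 with EtOH and 8.78, 10.31 and 10.01 with ABA. Every EtOH array of a genotype was above every ABA array of it, in all 4 genotypes, and the lowest leaf array of SWEET11 was the ABA array of the double mutant at 8.78. As background, groups of 3 did not overlap at 48.9% of all probe sets in WT and 26% in agb1-2. The share was 32.3% in gpa1-4 and 25.4% in the double mutant.

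The fall of SWEET11 in leaves passed in all 3 mutants, with smaller margins than the rise of SWEET4. It measured -1.15 (SE 0.334, 95% interval -1.85 to -0.45, adjusted p = 0.0254 by limma) in agb1-2. It was -1.27 (-1.97 to -0.57, adjusted p = 0.0186) in gpa1-4 and -1.36 (-2.06 to -0.66, adjusted p = 0.0122) in the double mutant, so that the levels with ABA were 2.2-, 2.4- and 2.6-fold lower. ABA lowered 7.59%, 4.95% and 5.07% of all probe sets in leaves of agb1-2, gpa1-4 and the double mutant, and 21.8% in WT leaves. The call in agb1-2 was lost without EtOH replicate 1 (-1.04, adjusted p = 0.102), ABA replicate 2 (-1.10, 0.072) or ABA replicate 3 (-0.90, 0.142). That in gpa1-4 was lost without EtOH replicate 1 (-1.24, 0.0624) or 3 (-1.23, 0.0617) and without ABA replicate 2 (-1.12, 0.0859) or 3 (-1.22, 0.0726). In the double mutant it was lost without EtOH replicate 2 (-1.21, 0.0609) or ABA replicate 1 (-0.90, 0.0594), and a fit of only the 6 arrays compared lost the calls of agb1-2 (0.0832) and the double mutant (0.12). Mesophyll markers moved in the same direction in leaves. Their mean was 11.48 to 12.61 with EtOH and 10.46 to 11.47 with ABA, with 4 of 6 called lower in WT, 2 in agb1-2, and 0 in either other mutant. Their part in the fall of SWEET11 was not tested. These are bulk samples, in which fewer cells of a type and less RNA per cell cannot be told apart.

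**Figure D2:**
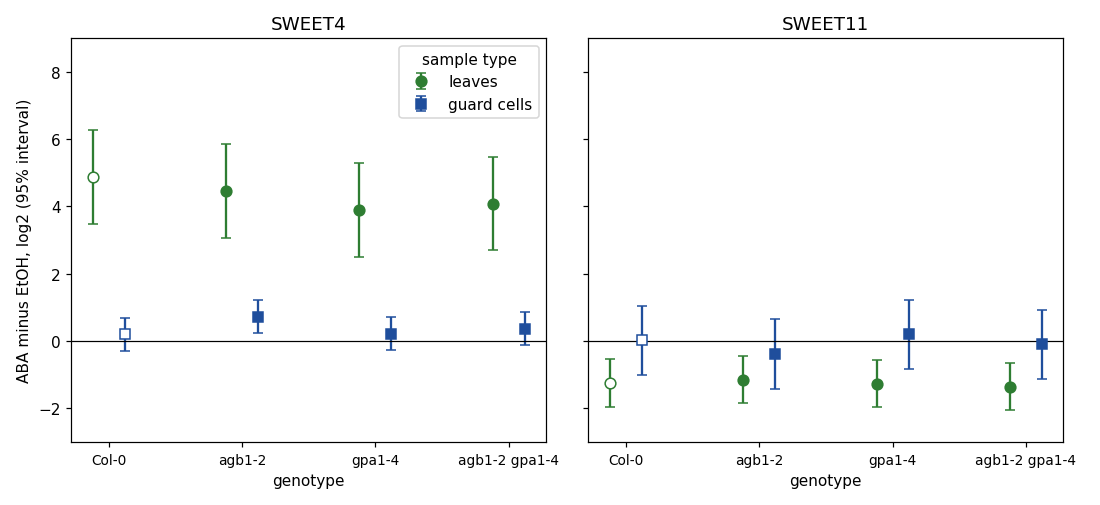
Difference between ABA and EtOH (log2, vertical axis) by genotype (horizontal axis) for SWEET4 (left) and SWEET11 (right), in leaves (circles) and guard cells (squares), with 95% intervals from the fit. Open symbols are WT, shown without a test. The leaf values are 3.89 to 4.87 for SWEET4 and -1.36 to -1.15 for SWEET11, while those of guard cells lie between -0.39 and 0.72.

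In guard cell samples SWEET4 stood near the dim end of the arrays with or without ABA. WT guard cells read 3.79, 3.93 and 4.02 with EtOH and 3.94, 4.04 and 4.35 with ABA. The agb1-2 guard cells read 3.86, 3.85 and 3.88 with EtOH and 5.45, 4.03 and 4.26 with ABA, where the first ABA array was the highest of all guard cell arrays for SWEET4. In gpa1-4 the values were 3.84, 3.85 and 3.67 with EtOH and 4.09, 3.87 and 4.05 with ABA. In the double mutant they were 4.07, 3.59 and 3.73 with EtOH and 4.14, 4.24 and 4.1 with ABA. Of the 24 guard cell arrays, all but that 1 lay between 3.59 and 4.35.

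The response of SWEET4 to ABA in guard cells was called in 1 of the 3 mutants. In agb1-2 the difference was 0.72 (95% interval 0.23 to 1.21, adjusted p = 0.042 by limma), where 7.26% of all probe sets were called higher. It rested on 1 array, since without ABA replicate 1 it was 0.28 (adjusted p = 0.251). The call was also lost without EtOH replicate 1 (0.0967), 2 (0.0978) or 3 (0.0949), under quantile normalization (0.0661) and in a fit of only the 6 arrays (0.253). The difference was 0.22 in gpa1-4 (adjusted p = 0.626), 0.36 in the double mutant (adjusted p = 0.343) and 0.20 in WT. The share of all probe sets called higher was 8.55% in WT, 8.67% in gpa1-4 and 7.26% in double mutant guard cells. The 4 measured ABA-induced genes, cold and dehydration proteins such as LEA4-5 and COR15A, were called higher in guard cells in 4 of 4 cases in every genotype, with a median rise of 2.36 to 3.13. In leaves 3 of the 4 were called in WT, agb1-2 and the double mutant and 4 in gpa1-4, with a median rise of 1.80 to 2.01. ABA raised 5.09% to 16.9% of all probe sets in leaves. Markers moved under ABA in guard cells as well. FAMA fell in every genotype (differences of -2.78 to -2.23, each called by limma). The other measured guard cell marker, AT1G22690, was called in no genotype. It lay at 13.58 to 14.17 with EtOH and 12.9 to 13.96 with ABA. Of the 6 mesophyll markers 2 were called lower in each genotype. ABA lowered 8.44% to 11.6% of all probe sets in guard cells. The part of these markers in the guard cell values of SWEET4 and SWEET11 was not tested.

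SWEET11 was low in guard cells and showed no call under ABA there. WT guard cells read 5.33, 4.1 and 4.85 with EtOH and 4.82, 4.49 and 5.01 with ABA. The agb1-2 guard cells read 6.15, 5.16 and 4.72 with EtOH and 5.46, 5.22 and 4.18 with ABA, sets of values that overlapped widely. In gpa1-4 the arrays were 4.02, 4.12 and 4.24 with EtOH and 4.12, 4.30 and 4.55 with ABA. In the double mutant they were 6.53, 4.68 and 3.92 with EtOH and 5.18, 5.18 and 4.48 with ABA. Single groups thus spread widely, the double mutant with EtOH more than any leaf group of this gene.

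The differences between ABA and EtOH for SWEET11 in guard cells were -0.39 in agb1-2 (95% interval -1.42 to 0.64, adjusted p = 0.726), 0.20 in gpa1-4 (-0.83 to 1.23, adjusted p = 0.862) and -0.10 in the double mutant (-1.13 to 0.93, adjusted p = 0.927), by limma. WT measured 0.02. The interval of agb1-2 includes the fall seen in its leaves, and the intervals of gpa1-4 and the double mutant do not include theirs. In gpa1-4 the EtOH arrays stood near the dim end, where a fall of that size could hardly show. The leaf falls also carry an error of their own. The direct test of guard cell against leaf response was not called in gpa1-4 (adjusted p = 0.168 by limma) or the double mutant (0.292). The sign of the guard cell difference turned without EtOH replicate 1 of agb1-2 (0.02), and without EtOH replicate 1 (0.64) or ABA replicate 3 (0.13) of the double mutant. The guard cell arrays with the most SWEET11, at 6.53 and 6.15, had mesophyll marker means of 10.02 and 9.91, inside the range of 9.28 to 10.31 of guard cell samples with EtOH. The part of other leaf cells in these arrays was not tested, and the 1 measured vascular marker, OPS, was dim on all arrays.

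SWEET11 was lower in guard cells than in leaves in every genotype under both treatments. With EtOH it was lower by -5.74 in agb1-2 (SE 0.438, adjusted p = 2.91e-13 by limma), -6.86 in gpa1-4 (adjusted p = 2.39e-15) and -6.02 in the double mutant (adjusted p = 7.7e-14). WT measured -6.32. The guard cell side lay near the dim end in gpa1-4, at 4.13 ± 0.11 (SD, n = 3). It was at 5.34 ± 0.74 in agb1-2, 5.04 ± 1.34 in the double mutant and 4.76 ± 0.62 in WT. The medians of the arrays were 5.06 to 5.39. With ABA the differences were -4.98, -5.40 and -4.76 in the same order (adjusted p of 1.05e-11, 1.27e-12 and 2.49e-11) and -5.06 in WT. As background, 20.1%, 20.7% and 21.4% of all probe sets were called lower in guard cells of agb1-2, gpa1-4 and the double mutant with EtOH, and 20.5%, 21.1% and 22.7% with ABA. In WT the share was 22.2% with EtOH and 23.2% with ABA. Leaving out any 1 array moved no SWEET11 difference of the mutants outside -6.93 to -4.45. Guard cell isolation went with the sample type, so the 2 cannot be told apart.

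SWEET4 differed between the sample types with ABA. It was lower in guard cells by -4.36 in agb1-2 (adjusted p = 6.97e-09 by limma), -4.0 in gpa1-4 (adjusted p = 3.58e-08) and -4.77 in the double mutant (adjusted p = 7.6e-10), and WT measured -5.24. With EtOH the differences were -0.63, -0.33 and -1.06 (adjusted p of 0.37, 0.666 and 0.0941) and -0.56 in WT. None of the 3 mutants passed with EtOH. Leaf arrays of single replicates moved these values. Without EtOH replicate 3 of the double mutant its difference was -1.56 (adjusted p = 0.0212), and without leaf EtOH replicate 1 the WT value was -0.04.

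The response to ABA was then compared between guard cells and leaves directly, as the guard cell response minus the leaf response. For SWEET4 it was -3.73 in agb1-2 (SE 0.721, adjusted p = 0.000661 by limma), -3.67 in gpa1-4 (adjusted p = 0.000657) and -3.72 in the double mutant (adjusted p = 0.000806), beside -4.68 in WT. Among all probe sets 3.1%, 3.93% and 2.84% had a lower response in guard cells of the 3 mutants, and 10.7% in WT. The opposite difference, with the guard cell response above the leaf response, was called at 12.3% of probe sets in WT, 3.2% in the agb1-2 mutant, 3.84% in the gpa1-4 mutant and 2.69% in the double mutant. The SWEET4 difference kept its call in each of the 12 fits per mutant that left out 1 array. For SWEET11 the difference was 0.76 in agb1-2 (adjusted p = 0.616), 1.46 in gpa1-4 (adjusted p = 0.168) and 1.26 in the double mutant (adjusted p = 0.292), beside 1.26 in WT. None passed, although the unadjusted p was 0.0237 in gpa1-4 and 0.0488 in the double mutant. A fit of only the 12 arrays compared called it in gpa1-4 (adjusted p = 0.00267), and leaving out guard cell EtOH replicate 1 of the double mutant called it there (2.0, adjusted p = 0.0258).

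Ordered by group mean, SWEET4 fell into 2 blocks. The 4 leaf groups with ABA led, with 9.35 ± 1.02 in WT, 8.94 ± 0.81 in agb1-2, 8.94 ± 1.11 in the double mutant and 8.00 ± 0.45 in gpa1-4 (SD, n = 3 each), and neighbours in this order overlapped. A gap of 3.15 followed, down to 4.85 ± 1.31 in leaves of the double mutant with EtOH. From there to guard cells of gpa1-4 with EtOH (3.79 ± 0.10) all neighbouring groups overlapped. SWEET11 fell into 3 blocks, the leaf groups with EtOH at 10.99 to 11.09, those with ABA at 9.70 to 9.94, and guard cells at 4.13 to 5.34. The gaps between these blocks were 1.05 and 4.36, and inside each block neighbouring groups overlapped.

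The 3 mutants were compared with each other to ask whether either gene depended on which G protein subunit was lost. In leaves with ABA the moderated F was 1.33 for SWEET4 (adjusted p = 0.993 by limma) and 0.31 for SWEET11 (adjusted p = 0.997). For the ABA response in leaves it was 0.19 for SWEET4 and 0.10 for SWEET11 (adjusted p = 1.0 for both). The highest F among the 12 such tests of the 2 genes belonged to SWEET11 in guard cells with EtOH (F 3.32, adjusted p = 1.0 by limma), where gpa1-4 was at 4.13 ± 0.11, agb1-2 at 5.34 ± 0.74 and the double mutant at 5.04 ± 1.34. SWEET4 in guard cells with ABA followed (F 3.25, adjusted p = 0.941). None of the 12 was called. Among all probe sets such a difference was rarely called by limma, in 0.00879% with EtOH and 0.00879% with ABA in leaves, 0.0484% and 0.022% in guard cells. For the response it was called at 0 probe sets in leaves (153 at an unadjusted p under 0.05) and 0 in guard cells (286).

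Mutant and WT arrays were set side by side without a test. Their ranges overlapped in all 24 pairs of mutant and WT groups over the 2 genes. The share of all probe sets with such overlap is not given here. Sets of 3 arrays overlap readily, so this does not show likeness to WT. The largest difference was SWEET4 in leaves with ABA, which was lower by -1.34 in gpa1-4 (8.00 against 9.35). There the overlap rested on 1 gpa1-4 array, at 8.52 against a lowest WT array of 8.46. The next were SWEET11 in guard cells with EtOH, at -0.63 in gpa1-4 and 0.59 in agb1-2. In leaves SWEET11 of each mutant lay within 0.13 of WT under both treatments.

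**Figure D3:**
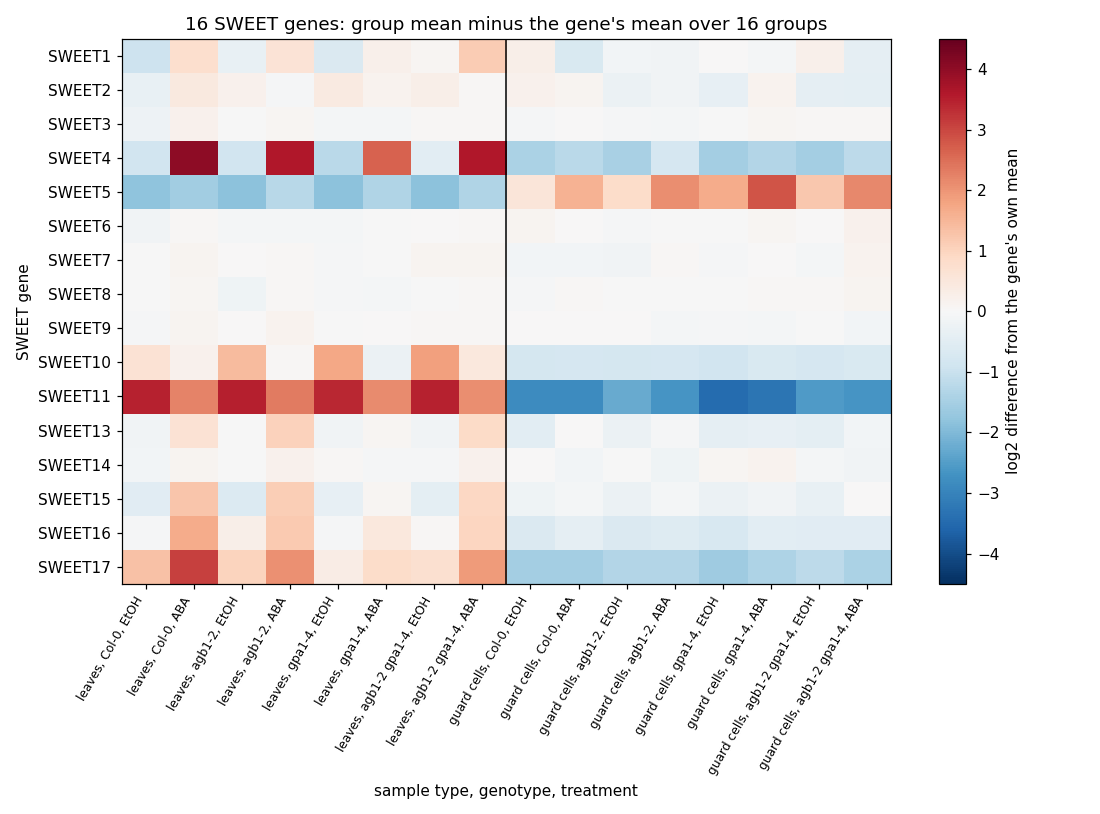
Group mean minus the gene's own mean over the 16 groups (colour, log2) for 16 SWEET genes (rows), by sample type, genotype and treatment (columns, n = 3 arrays each). SWEET4 is raised in the 4 leaf groups with ABA, SWEET11 in all 8 leaf groups and SWEET5 in all 8 guard cell groups.

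Few of the other 14 measured SWEET genes were called under ABA. SWEET3, SWEET6, SWEET7, SWEET8, SWEET9 and SWEET14 stayed between 3.13 and 4.28 on all arrays, near the dim end. There a fall could hardly show and a rise may be understated, so their lack of calls is no sign of an absent response. In leaves 3 of 14 were called higher and 0 lower in WT, 2 and 0 in agb1-2, 0 and 1 in gpa1-4, and 1 and 0 in the double mutant. Of all probe sets 16.9% were called higher and 21.8% lower in WT leaves, 6.93% and 7.59% in agb1-2, 5.37% and 4.95% in gpa1-4, and 5.09% and 5.07% in leaves of the double mutant. At these shares 1 gene of 14 called in a direction is near the background. The median over the 14 genes was 0.35, 0.21, 0.05 and 0.15 in that order, beside 0.05, 0, -0.03 and 0 over all probe sets. Centring each array on its median raised the median of all probe sets by 0.26 in WT leaves, and 13 of the 14 were then called there. That shift was 0.12 or less in the mutants. The share of all probe sets called under centring is not given here, so the 13 are not read as a result about these genes.

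SWEET15 (also SAG29), a senescence-linked sucrose carrier, was the family member with the most calls in leaves besides SWEET4 and SWEET11. It rose by 1.78 in WT (adjusted p = 0.00161), by 1.73 in agb1-2 (adjusted p = 0.00543) and by 1.37 in the double mutant (adjusted p = 0.0325), and stood at 0.47 in gpa1-4 (adjusted p = 0.594), all by limma. The call in the double mutant was lost without EtOH replicate 1 (0.08), 2 (0.0969) or 3 (0.0664) and without ABA replicate 2 (0.19) or 3 (0.053). SWEET16, a vacuolar sugar carrier, rose by 1.74 in WT leaves (adjusted p = 0.00894), a call lost without ABA replicate 2 (0.0674). SWEET1, a glucose carrier, rose by 1.70 there (adjusted p = 0.019), lost without EtOH replicate 1 (0.074) or 2 (0.102), or without ABA replicate 1 (0.058). SWEET5 (also AtVEX1), known from pollen, rose by 0.59 in agb1-2 leaves (adjusted p = 0.0169), lost without EtOH replicate 1 (0.0594) or 2 (0.0656), or without ABA replicate 1 (0.0738). SWEET10, a sucrose carrier known from the floral transition, fell in gpa1-4 leaves (-2.0, adjusted p = 0.038), and that call was lost without EtOH replicate 1 (0.121) or 2 (0.117) and without ABA replicate 1 (0.127), 2 (0.0786) or 3 (0.0897).

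In guard cells ABA called 1 of the 14 genes in WT and 0 of 14 in each mutant by limma. The gene was SWEET1 in WT (-0.94, adjusted p = 0.0307), lost without EtOH replicate 1 (0.0853) or 3 (0.114), or without ABA replicate 2 (0.17). ABA lowered 11.6% of all probe sets in WT guard cells, 8.44% in agb1-2, 11.4% in gpa1-4 and 8.99% in double mutant guard cells. At an unadjusted p under 0.05, 1 of the 14 passed in the double mutant (SWEET1, -0.64, adjusted p = 0.166) and 0 in agb1-2 and gpa1-4. In guard cells SWEET13, SWEET16 and SWEET17 were near the dim end too, between 3.18 and 4.58, with the same limit as the dim genes above.

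Between the sample types, SWEET5 was the 1 family member that was higher in guard cells in every genotype under both treatments. Its difference with EtOH was 2.36 in WT, 2.64 in the agb1-2 mutant, 3.49 in the gpa1-4 mutant and 3.05 in the double mutant (adjusted p from 1.09e-06 to 0.000359 by limma). With ABA it was 3.14, 3.31, 4.19 and 3.52. Of all probe sets 20%, 19.6%, 21.8% and 22.7% were called higher in guard cells of these genotypes with EtOH, and 26%, 21.9%, 23.8% and 25.3% with ABA. SWEET17, a fructose carrier of the vacuole, went the way of SWEET11 and was lower in guard cells by -2.85, -2.29, -1.94 and -1.93 with EtOH and by -4.61, -3.37, -2.24 and -3.34 with ABA, each of them called. SWEET10 was lower with EtOH (-1.47, -2.22, -2.60 and -2.61), where WT lost its call when leaf EtOH replicate 3 was left out (-0.92, adjusted p = 0.125). SWEET16 was lower with ABA (-2.06, -1.72, -0.98 and -1.47). The gpa1-4 call of SWEET16 was lost without guard cell ABA replicate 1 (0.0936) or 2 (0.0614) or leaf ABA replicate 1 (0.125) or 3 (0.0702).

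Other genes of sugar transport and use were measured in part, with 4 of 14 monosaccharide symporters, 5 of 10 vacuolar and plastid carriers, 3 of 18 genes of sucrose synthesis and cleavage and 0 of 9 sucrose-proton symporters. Among the vacuolar carriers in leaves under ABA, SFP1 was called higher in all 4 genotypes and TMT1, a tonoplast importer of hexoses, lower in all 4, where ABA raised 5.09% to 16.9% and lowered 4.95% to 21.8% of all probe sets. TMT3, a relative of TMT1, was called higher in WT (0.58, adjusted p = 0.0166 by limma), lost without EtOH replicate 1 (0.0657) or ABA replicate 1 (0.0816). SFP1 rose by 2.52 in WT, 2.23 in the agb1-2 mutant, 2.42 in the gpa1-4 mutant and 2.06 in the double mutant. TMT1 stood at -2.16, -1.51, -1.03 and -1.41, where the gpa1-4 call was lost without EtOH replicate 1 (0.0538) or 2 (0.0655), or without ABA replicate 1 (0.06) or 3 (0.0855). AT1G62660, 1 of the 3 genes of sucrose synthesis and cleavage, rose in leaves by 2.12, 3.15, 3.18 and 2.99 (adjusted p of 0.000519 or less by limma). AT4G10120, a sucrose-phosphate synthase gene of that list, fell in WT leaves (-1.19, adjusted p = 0.0111 by limma), a call lost without EtOH replicate 1 (0.0524). Neither it nor the third gene of the list was called in a mutant.

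In guard cells ABA raised 1 of the 5 vacuolar and plastid carriers in every genotype and lowered 1 in each mutant, against 7.26% to 8.67% of all probe sets raised and 8.44% to 11.4% lowered in the groups concerned. TMT2, another tonoplast hexose carrier, rose by 0.91 in WT, 1.54 in the agb1-2 mutant, 1.38 in the gpa1-4 mutant and 1.49 in the double mutant (adjusted p from 5.03e-05 to 0.00648 by limma). TMT1 was lower by -1.18 in the agb1-2 mutant, -0.90 in the gpa1-4 mutant and -1.09 in the double mutant. Its calls were lost without EtOH replicate 3 in agb1-2 (0.0517), without each of the 6 arrays in gpa1-4 (0.0559 to 0.124), and without EtOH replicate 1 (0.135) or ABA replicate 2 (0.074) or 3 (0.0671) in the double mutant.

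Of the 4 monosaccharide symporters 2 were called higher with ABA in guard cells of every genotype, where 7.26% to 8.67% of all probe sets were. AT1G34580 rose by 0.83 in WT, 0.93 in the agb1-2 mutant, 1.12 in the gpa1-4 mutant and 0.61 in the double mutant, where the call was lost without each of the 6 arrays (adjusted p from 0.0507 to 0.132 by limma). AT5G61520 rose by 1.32, 1.16, 0.96 and 1.24 (adjusted p from 1.38e-05 to 0.00046). In leaves the same gene stood at -1.09, -1.30, -1.21 and -1.03, called in WT, agb1-2 and gpa1-4. Those leaf calls were lost without EtOH replicate 1 (0.146) or ABA replicate 1 (0.124) or 3 (0.065) in WT, and without EtOH replicate 1 (0.0744) or 3 (0.0508), or without ABA replicate 2 (0.0566) or 3 (0.0956), in agb1-2. In gpa1-4 each of the 6 arrays left out lost it (adjusted p from 0.0619 to 0.119).

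**Figure D4:**
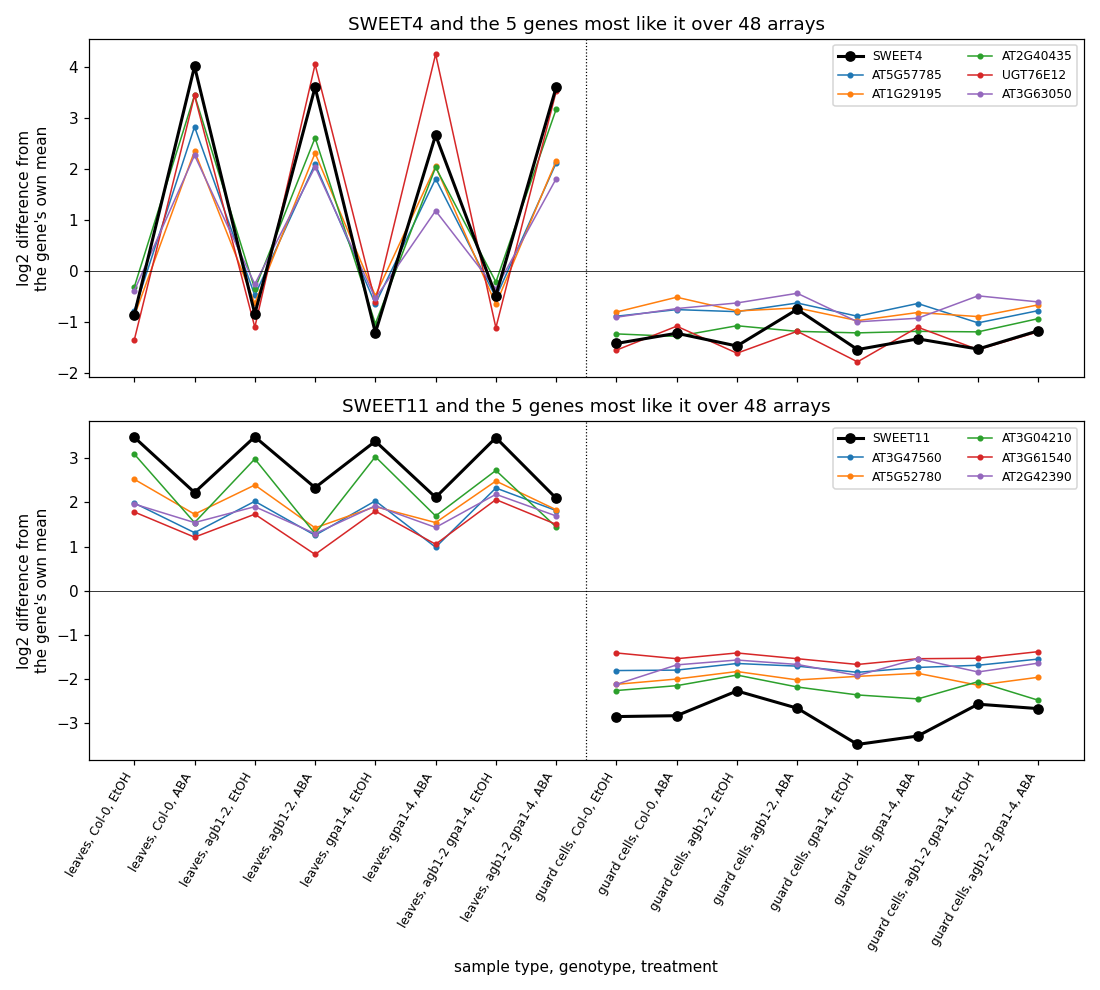
Group mean minus the gene's own mean (log2, vertical axis) for SWEET4 (top) and SWEET11 (bottom) in black and the 5 genes most like each over 48 arrays in colour, by sample type, genotype and treatment (horizontal axis). The top lines rise in leaves with ABA, and the bottom lines separate leaves from guard cells.

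The genes most like SWEET4 over the 48 arrays were AT5G57785 (Pearson r = 0.969), AT1G29195 (0.968), AT2G40435 (0.966), the glycosyltransferase UGT76E12 (0.956) and AT3G63050 (0.953). Over the 24 leaf arrays alone these r were 0.961, 0.958, 0.956, 0.934 and 0.952, and over the 24 guard cell arrays 0.417, 0.516, 0.104, 0.661 and 0.549. The likeness was thus one of the leaf arrays, in which the contrast of ABA and EtOH dominates. The genes most like SWEET11 were AT3G47560 (0.98), AT5G52780 (0.979), AT3G04210 (0.979), AT3G61540 (0.977) and AT2G42390 (0.976). Over leaf arrays alone their r dropped to 0.713, 0.749, 0.796, 0.711 and 0.661, and over guard cell arrays to 0.456, 0.135, 0.635, 0.213 and 0.375. For SWEET11 the likeness came from the step between sample types. SWEET4 and SWEET11 had r = 0.512 with each other over all arrays, -0.706 over leaf arrays and 0.275 over guard cell arrays. By Spearman's rho over the 48 arrays the likeness was lower, at 0.728 to 0.878 for the 5 genes most like SWEET4 and 0.865 to 0.909 for those most like SWEET11. All these r share arrays, treatments and sample types, and are descriptions.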

How the data were processed

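RNA of 48 samples was hybridised to 1-colour expression arrays. The values the authors deposited are log2 expression values per probe set. According to the submitters' processing notes they come from RMA in affy. Versions, and whether all arrays were normalized together, are not given in the sources used here. Of 22810 probe sets 64 controls were left out. A platform annotation, updated with RefSeq gene symbols of TAIR10.1, named 1 gene for 13513 probe sets, several for 503 and none for 8730. Only probe sets of the first kind are named. SWEET5, SWEET15 and loci without a symbol were matched by locus tag. The number of arrays limits the precision.

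Differences were fitted with limma 3.58.1 in R 4.3.3, as cell-means models with empirical Bayes moderation, on the 24 arrays of a sample type or, between types, on all 48. Two-sided p-values took Benjamini-Hochberg adjustment across the 22746 probe sets, with calls at an adjusted p under 0.05. Fits were tested on simulated data. Values per group are mean ± SD (n = 3), and SE and 95% intervals come from the fit. A gene list is described by its calls and median, with no list test.

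SWEET4 and SWEET11, the lists and the comparisons were chosen with earlier results of these data known. Named were both genes, every measured SWEET gene, up to 4 called members of each list with the largest differences, and the 5 genes of highest Pearson r with each gene. Alternatives were quantile normalization, median centring, leaving out probe sets with a mean under 4, a mean-variance trend with robust moderation, only the arrays compared, a replicate block and leaving out each array. Same-numbered replicates of ABA and EtOH deviated together (every correlation over 0.1) in 5 of 8 pairs of groups, and those of guard cells and leaves in 0 of 8. No 2 arrays held identical values (highest correlation 0.9952). Probe sequences were not used here, so signal shared between SWEET11 and its relatives was not checked.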

Additional observations from a re-analysis of the deposited data

Results flagged for a closer look

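The ABA response differed between guard cells and leaves, by the test of the difference itself (limma, adjusted over all probe sets), for 8 combinations of SWEET gene and genotype. Each value is the guard cell response minus the leaf response on the log2 scale. SWEET4 gave -3.73 in the agb1-2 mutant, -3.67 in the gpa1-4 mutant and -3.72 in the double mutant. SWEET1 gave -2.64 in WT (adjusted p = 0.00262). SWEET15 gave -1.67 in WT (adjusted p = 0.00588) and -1.58 in agb1-2 (adjusted p = 0.0249). SWEET16 gave -1.48 in WT (adjusted p = 0.0395). SWEET10 gave 2.17 in gpa1-4 (adjusted p = 0.0276), the 1 positive difference of the 8. Of all probe sets, 23% had such a call in either direction for WT. The share was 5.53% for the double mutant, 6.3% for agb1-2 and 7.76% for gpa1-4. The 14 SWEET genes besides SWEET4 and SWEET11 had 3 such calls for WT, 1 for each single mutant and 0 for the double mutant. These counts are near the background. SWEET4 had been selected on this difference in WT. The SWEET4, SWEET1 and WT SWEET15 calls held in every fit that left out 1 array. Those of SWEET15 in agb1-2 were lost without guard cell EtOH replicate 3 (0.0587), guard cell ABA replicate 1 (0.0505) or 3 (0.0503), leaf EtOH replicate 1 (0.059) or leaf ABA replicate 2 (0.0823). SWEET16 lost its call in 8 of 12 such fits (0.0564 to 0.229) and SWEET10 in 6 of 12 (0.0529 to 0.0738). Groups of 3 are too small for an outlier test, so none was run.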

How the results depend on the processing

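The SWEET4 rise in leaves, its lower level in guard cells with ABA, its response difference and the lower SWEET11 level in guard cells kept direction and call in the 3 mutants under every alternative run. With 1 array left out, the SWEET11 fall in leaves ranged from -1.46 to -0.90 in agb1-2, -1.46 to -1.12 in gpa1-4 and -1.67 to -0.90 in the double mutant (highest adjusted p 0.142, 0.0859 and 0.0609). With only the arrays compared it was -1.15 in agb1-2 and -1.36 in the double mutant, no longer called (0.0832 and 0.12). SWEET4 in agb1-2 guard cells ranged from 0.28 to 1.0 with 1 array left out and was 0.66 (0.0661) under quantile normalization and 0.72 (0.253) with only the arrays compared. Uncalled values of SWEET11 in guard cells changed sign, from -0.70 to 0.02 in agb1-2 and -0.66 to 0.64 in the double mutant. SWEET4 without ABA, guard cells minus leaves in the double mutant, ranged from -1.56 to -0.31. The SWEET11 response difference ranged from 0.70 to 2.0 in the double mutant and was called in gpa1-4 with only the arrays compared (1.46, adjusted p = 0.00267). The cause of these changes was not tested.

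With the replicate number as a block, shared by all genotypes of a sample type, no call of SWEET4 or SWEET11 changed. That block does not model a pairing of ABA and EtOH arrays within a genotype, which was not fitted. Under the block the adjusted p was 0.0331 for SWEET11 in agb1-2 leaves (-1.15) and 0.0365 for SWEET4 in agb1-2 guard cells (0.72). Counts over all probe sets moved by over 1.5 times with only the arrays compared, for ABA in leaves from 3303 to 1557 in agb1-2, 2347 to 3967 in gpa1-4 and 2311 to 1358 in the double mutant, and in WT guard cells from 4585 to 3017. Calls among the mutants in guard cells with EtOH went from 11 to 22 with the block and 6 with only the arrays compared, and ranged from 6 to 32 with 1 array left out. With ABA they went from 5 to 9 with the trend (4 to 12 with 1 array left out), and in leaves with EtOH from 2 to 1. With 1 array left out, counts for ABA in leaves ranged from 2166 to 4045 in agb1-2, 1439 to 1788 in gpa1-4 and 1404 to 2421 in the double mutant. Calls among the 14 other SWEET genes moved in 9 of 20 comparisons with only the arrays compared, 3 with quantile normalization, 2 with median centring, 1 each with the trend and without dim probe sets, and 0 with the block. In WT leaves under ABA they went from 3 to 13 with median centring, which raised the median of all probe sets there by 0.26. The 1 call in WT guard cells went to 0 with quantile normalization or only the arrays compared. The likeness of the 10 named genes fell with Spearman's rho (0.728 to 0.909) and kept its level under both scalings.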

Other observations

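Whether arrays with more SWEET4 than their group mean also carried more SWEET11 was looked at after the values were seen. Over the 9 mutant leaf arrays with ABA, the deviations from the group means of the 2 genes had Pearson r = 0.68. By exact permutation within groups over 216 pairings, two-sided, p was 0.19, or 0.408 after Benjamini-Hochberg adjustment over 4 relations. Spearman rho was 0.53 (p = 0.296 by the same permutation). Without the 2 arrays farthest from the median r was 0.28. Over the mutant leaf arrays with EtOH r was 0.72 (p = 0.204 by the same permutation). Mutant guard cell arrays gave 0.64 with EtOH (p = 0.486) and 0.45 with ABA (p = 0.565), by that permutation too. Without the 2 farthest arrays these 3 r were 0.89, 0.13 and 0.73. With the WT arrays included, r was 0.71 in leaves with ABA and 0.63 with EtOH. In guard cells it was then 0.46 with EtOH and 0.47 with ABA, all given here without a test. None of the 4 relations passed.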
